A study of Mus musculus with 10 samples.

Results

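The genes described here are the cyclins, the cyclin-dependent kinases (CDKs) and the genes of mitosis on a mouse array. They were taken by gene symbol: probes whose single annotated symbol begins with Ccna, Ccnb, Ccnd, Ccne, Ccnf, Ccng, Ccnt, Cdk, Cenp, Bub, Aurk, E2f, Cdc2, Cdca or Anapc, or with Plk or Nek and a digit, plus Birc5, Ube2c, Ndc80, Nuf2, Ttk, Mad2l1, Incenp, Wee1, Rb1, Rbl1, Rbl2, Tpx2, Prc1 and Nusap1. Cdkn1c was left out. This gave 117 genes of the 13840 named on the array, measured by 120 probes. Ccnb3, Cenpe and Mad2l1 each had several probes, and the one brightest on average was used for these 3 genes. Genes with no probe of a single symbol in the annotation used were not analysed here. Among them were Mki67, Ccnb1, Cdk2, Cdk5, Ccne2, Ccng1, Cdkn2c, Cdkn3, E2f1, E2f3, E2f7, E2f8, Cenpf and Cdc27.

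RNA from 2 mouse tissues was measured on single-channel Applied Biosystems arrays. One RNA came from retina of adult C57/B6 mice, a pool of 350 animals, and the other from cortex of mice at postnatal day 1, a pool of 19 animals. Each RNA was hybridised to 5 arrays, and the study ran them to compare microarray platforms and to measure variation within a platform. No genotype, transgene or treatment is given for either pool. The labels conflict on the strain of the cortex mice, C57/B6 by the samples' own descriptions but Swiss-Webster by the design text, and the titles of the retina arrays hold the letters P1 without explanation. The 5 arrays of a tissue are repeats of 1 pool, so every SD, SE and p-value below measures the spread between arrays and none measures the spread between animals. Tissue, age and possibly strain cannot be told apart.

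D-type cyclins bind Cdk4 and Cdk6 in G1 and phosphorylate the retinoblastoma protein Rb1, which frees E2F factors to switch on genes for DNA replication. Cyclins of the A and B types with Cdk1 and Cdk2 then carry the cell through S phase and into mitosis, where Aurora and Polo kinases, the kinetochore and the spindle checkpoint govern the separation of chromosomes, and the anaphase promoting complex marks cyclin B and securin for destruction. Neurons leave this cycle for good when they are born: the adult mouse retina holds almost no dividing cells, whereas the cortex of a newborn mouse still makes glia and holds recently born neurons. Several relatives of these proteins, such as the Cdk5 activators and Cdk18, work outside cell division.

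All levels are log2 intensities after quantile normalization and all differences are retina minus cortex on that scale. A gene was called when its adjusted p (limma, Benjamini-Hochberg over the 33012 probes) fell under 0.05 with a difference of 2-fold or more. Before normalization the arrays' median intensities lay at 836 to 987 for retina and at 1255 to 1341 for cortex. After normalization the correlation between arrays was 0.964 to 0.968 over the 10 retina pairs, 0.973 to 0.976 over the 10 cortex pairs and 0.872 to 0.877 over the 25 pairs across tissues. No detection flag was used, so 747 probes named for olfactory receptors, transcripts that are rare outside the nose, served as a yardstick: a probe is called dim here where its mean lay below their 95th percentile, 10.77 in retina and 10.65 in cortex. Brightness depends on the probe, so levels are compared between tissues and not between genes.

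Of the 117 genes, 44 were lower in retina (37.6%) and 9 were higher (7.69%). Among all 33012 probes 25.4% were called, 12.1% higher and 13.3% lower, and among the 13840 named genes 14.2% were higher and 14.7% lower. The role lists below are small, and their counts are to be read beside these shares of named genes. The median difference was -0.47 over the 117 genes, against -0.01 over all probes and 0.00 over the named genes. Of the genes that fell, 22 did so by at least 4-fold and 4 by at least 16-fold (Ccnd2, Cdca7, Birc5 and Aurkb), and 5 of those that rose did so by at least 4-fold (Plk5, Cdk18, Cdk2ap2, Bub1b and Cdkn2aip). The values of the tissues did not overlap in 79 genes (67.5%), a state met by 40.5% of all 33012 probes, of which 18354 were unnamed. This share was not computed for named genes alone, and the part of brightness in it was not tested. The array medians of the 117 genes ran from 11.40 to 11.67 in retina and from 12.38 to 12.47 in cortex.

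The remaining 64 genes were not called, of which 38 had an adjusted p under 0.05 with a difference under 2-fold. Dim signal set a limit in part of the list: 20 genes were dim in both tissues, Cdk1 among them. Of the 44 lower genes, 22 were dim in retina and not in cortex, and whether those retina values lay above background was not tested. A further 16 stood above the yardstick in both tissues and 6 were dim in both. Of the 9 higher genes 3 were dim in cortex (Cdk18, Cdkn2aip and Ccnd3). A difference against a dim value depends on the array's floor, so the order of such differences is not fixed by these data. Without normalization the median difference was -0.86 over the 117 genes and -0.41 over all probes, and the calls over all probes split into 2474 higher and 7621 lower, against 3987 higher and 4392 lower with it.

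**Figure D1:**
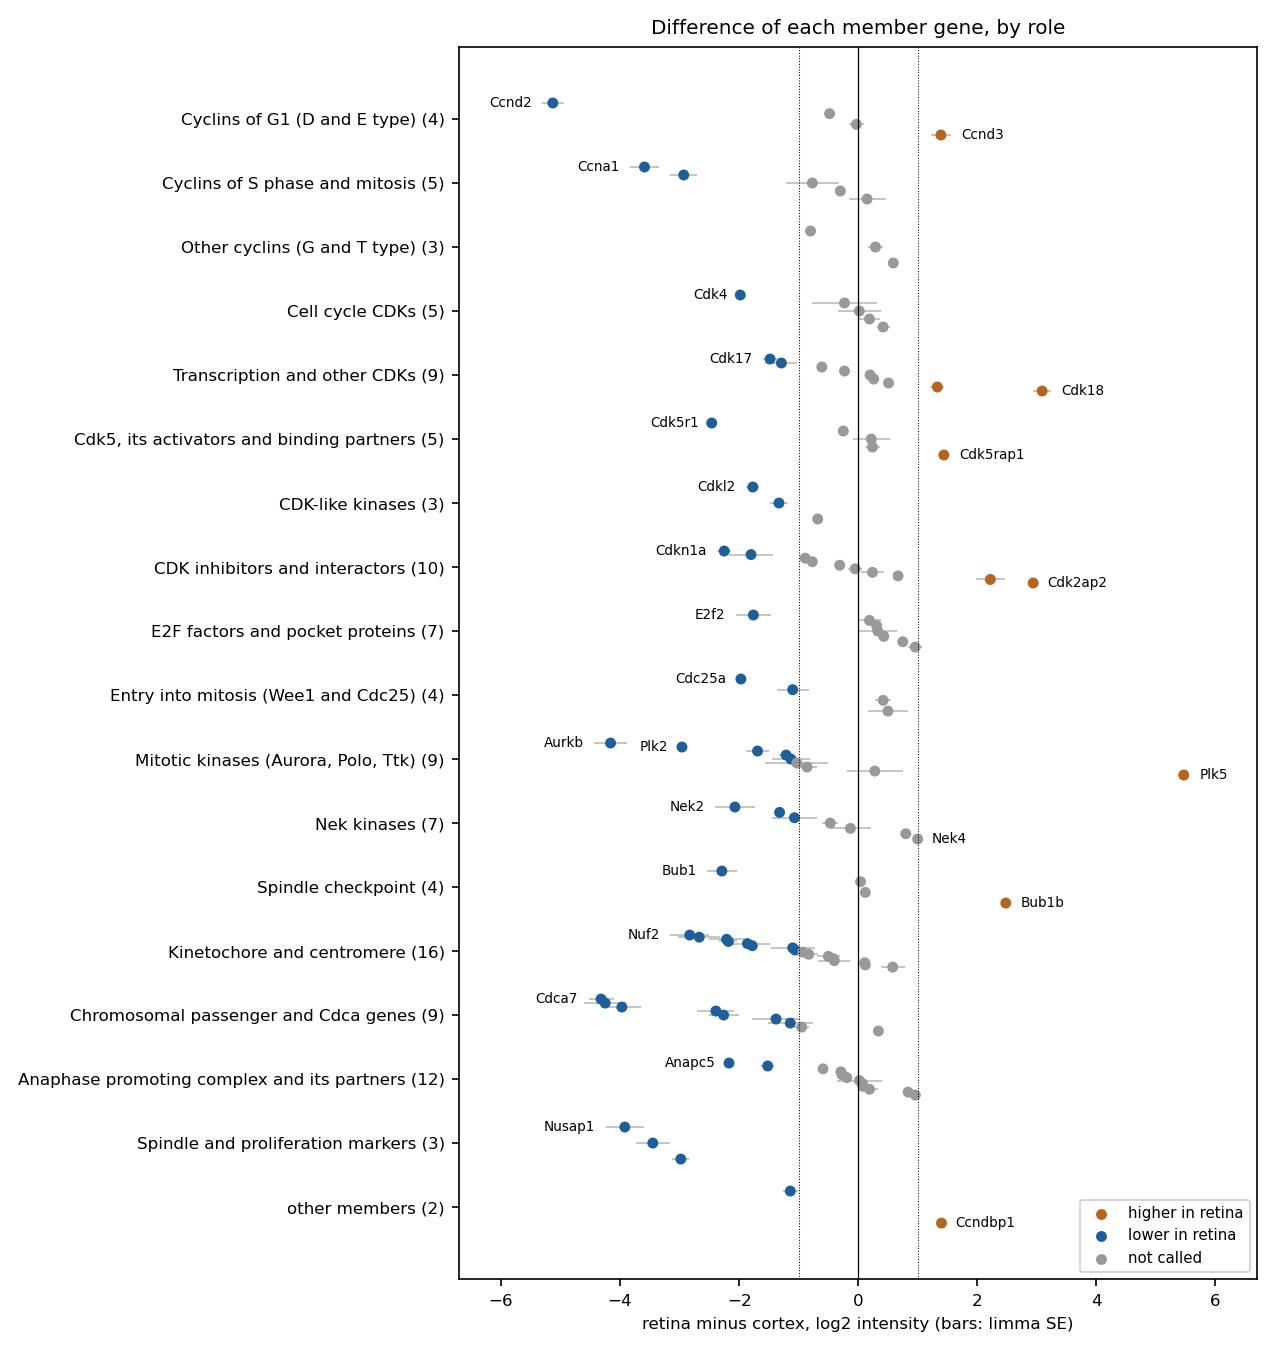
Difference of each of the 117 genes, retina minus cortex in log2 intensity (x axis), by role (y axis, number of genes in brackets); bars are limma standard errors and dotted lines mark 2-fold. Most called genes lie left of 0, out to Ccnd2 at -5.13, and 9 lie right of 2-fold, out to Plk5 at 5.47.

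Markers of several cell types also differed between the tissues. Markers of cortical neurons and of immature neurons (4 of 4 each) were lower in retina. So were those of oligodendrocyte precursors (4 of 4, each dim in retina) and of fibroblasts and meninges (5 of 5). Rod markers (4 of 4) and 3 of 4 Müller glia markers were higher, and Slc1a3, the other Müller marker, was not called (-0.84). Beside these counts, 14.7% of named genes were lower and 14.2% higher. The summed signal of the progenitor and radial glia list was 18.29 to 18.47 over the retina arrays and 19.93 to 20.02 over the cortex arrays. Within that list Fabp7 (-6.80), Tnc (-2.72) and Hes5 (-1.27) were lower, Sox2 (-0.87) and Vim (0.32) were not called, and Eomes was dim in both tissues. For the immature neuron list the sums lay between 18.02 and 18.13 in retina and between 21.17 and 21.27 in cortex, and for the fibroblast and meninges list between 13.46 and 13.71 in retina and between 16.92 and 17.01 in cortex. For oligodendrocyte precursors the sums were 11.45 to 11.70 in retina and 13.81 to 14.00 in cortex. Of the 5 endothelial markers 3 were lower (Cldn5 -2.03, Cdh5 -1.39 and Tek -1.32), 1 was higher (Kdr 2.17) and Pecam1 (-0.94) was not called. Their sums were 16.31 to 16.56 in retina and 16.33 to 16.41 in cortex. The brightest marker was Kdr in retina (16.15) and Cldn5 in cortex (15.92), so the near-equal sums come from different genes. Both erythroid markers were lower (sums of 15.01 to 15.30 in retina and 16.92 to 17.30 in cortex). The microglial list held Aif1 alone, lower (difference -1.57) and dim in both tissues (7.21 to 8.47 in retina and 8.79 to 10.16 in cortex). Sums for cortical neurons were 13.25 to 13.64 in retina and 18.92 to 18.99 in cortex, those for rods 21.79 to 21.84 in retina and 11.41 to 12.08 in cortex, and those for Müller glia 20.60 to 20.72 in retina and 18.08 to 18.23 in cortex. The part of these cells in the results below was not tested, and in bulk RNA fewer cells of a type and less RNA per cell cannot be told apart.

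Among the cyclins of G1, which start the cycle, 1 of 4 was lower and 1 was higher (25% each way). All named genes were 14.7% lower and 14.2% higher. Ccnd2, the D-type cyclin of many neural progenitors, read 9.48, 9.09, 10.05, 10.03 and 10.36 on the retina arrays, against 14.88, 14.94, 14.95, 14.98 and 14.88 on the cortex arrays. It was dim on every retina array and bright on every cortex array, a difference of -5.13 (SE 0.18, adjusted p = 1.55e-13) or 34.9-fold as measured against a dim retina value. Its relative Ccnd3 went the other way, with 12.09, 11.63, 11.42, 11.78 and 11.62 on the retina arrays, against 10.52, 10.68, 10.11, 10.03 and 10.24 on the cortex arrays. All 5 retina values stood above the cortex values (1.39, SE 0.17, adjusted p = 2.46e-06), although the cortex mean was dim, and without normalization the difference was 0.89 and not called. Ccnd1, which is bright in both tissues, averaged 14.74 ± 0.09 in retina and 15.22 ± 0.14 in cortex (SD, n = 5 each), which differ by -0.48, under 2-fold. Ccne1, the partner of Cdk2 at the start of S phase, averaged 11.44 ± 0.09 in retina and 11.47 ± 0.16 in cortex and was not called.

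Of the 5 cyclins of S phase and mitosis 2 were lower (40%, beside 14.7% of named genes) and none was higher (beside 14.2%). Ccna1, an A-type cyclin known in the mouse mainly from the male germ line, read 8.02, 7.61, 7.56, 8.16 and 7.93 on the retina arrays, against 11.54, 11.39, 11.36, 11.48 and 11.46 on the cortex arrays. Ccnb2, a B-type cyclin of mitosis, read 8.19, 9.43, 9.22, 9.29 and 9.02 on the retina arrays, against 12.03, 11.92, 12.03, 12.03 and 11.81 on the cortex arrays. Neither gene overlapped between tissues, both were dim on every retina array, and the differences were -3.59 (SE 0.24, adjusted p = 1.12e-09) for Ccna1 and -2.93 (SE 0.23, adjusted p = 6.56e-09) for Ccnb2. Ccna2, the A-type cyclin of dividing somatic cells, averaged 12.14 ± 0.12 in retina and 12.44 ± 0.09 in cortex and was not called. Ccnf and Ccnb3 were not called and were dim in both tissues. The 3 cyclins of the G and T types, Ccng2 (-0.80), Ccnt1 (0.59) and Ccnt2 (0.29), were not called either. Ccnt1 and Ccnt2 are partners of Cdk9 in transcription.

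Among the 5 CDKs of the cycle itself, the one called gene (20%, beside 14.7% lower among named genes) was Cdk4, the D-cyclin partner. It read 14.37, 14.38, 14.43, 14.36 and 14.29 on the retina arrays, against 16.31, 16.37, 16.36, 16.32 and 16.34 on the cortex arrays. The arrays of a tissue lay close together and the tissues stood well apart, a difference of -1.98 (SE 0.0421, adjusted p = 3.09e-16). Cdk1, the kinase that drives mitosis, averaged 8.18 ± 0.58 in retina and 8.16 ± 0.47 in cortex, and Cdk6, the other D-cyclin partner, 8.59 ± 1.25 in retina and 8.83 ± 0.83 in cortex. Both were dim in both tissues and not called, so no change could be read from these probes. Cdk7, which activates other CDKs, averaged 13.85 ± 0.23 in retina and 13.43 ± 0.20 in cortex, and Cdk3 averaged 11.07 ± 0.29 in retina and 10.89 ± 0.19 in cortex. Neither was called.

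The 9 CDKs of transcription and other tasks held 2 higher and 2 lower genes (22.2% each way). Among all named genes 14.2% were higher and 14.7% lower. Cdk18, a kinase of the PCTAIRE family with a role outside the cycle, read 13.41, 13.14, 13.07, 13.19 and 13.01 on the retina arrays, against 9.62, 9.85, 10.35, 10.36 and 10.19 on the cortex arrays. Cdk19, a subunit of the Mediator kinase module, read 12.04, 12.20, 12.18, 12.09 and 12.22 on the retina arrays, against 10.52, 10.79, 11.06, 10.78 and 10.90 on the cortex arrays. The retina values of both genes lay above all cortex values, by 3.09 (SE 0.15, adjusted p = 1.23e-11) for Cdk18 and 1.33 (SE 0.12, adjusted p = 4.78e-08) for Cdk19, with Cdk18 dim in cortex. Without normalization the Cdk19 difference was 0.87 and not called. In Cdk17, a second PCTAIRE kinase, the direction was the opposite. It read 11.67, 11.30, 11.30, 11.41 and 10.98 on the retina arrays, against 12.73, 12.87, 12.78, 13.00 and 12.69 on the cortex arrays, a difference of -1.48 (SE 0.12, adjusted p = 8.98e-09) with no overlap. Cdk12, which phosphorylates RNA polymerase during elongation, read 9.02, 8.33, 9.46, 8.74 and 9.04 on the retina arrays, against 10.08, 10.18, 10.25, 10.35 and 10.17 on the cortex arrays. The tissues did not overlap for Cdk12 (-1.29, SE 0.27, adjusted p = 0.000666), but it was dim in both. Cdk16, the third PCTAIRE kinase measured, averaged 13.34 ± 0.11 in retina and 13.95 ± 0.06 in cortex and was not called, and neither were Cdk8, Cdk9, Cdk11b and Cdk14, with differences from -0.23 to 0.51.

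Among genes named for Cdk5, the CDK of postmitotic neurons, 1 of 5 was lower and 1 was higher (20% each way). The shares over all named genes were 14.7% lower and 14.2% higher. Cdk5r1 encodes p35, the activator that Cdk5 needs in migrating and maturing neurons. It read 14.73, 14.83, 14.65, 14.73 and 14.70 on the retina arrays, against 17.27, 17.11, 17.20, 17.20 and 17.16 on the cortex arrays. The cortex values were all higher and the spread within each tissue was small beside the difference of -2.46 (SE 0.0472, adjusted p = 8.56e-17). Cdk5rap1, named as a Cdk5 partner and known as an enzyme that modifies mitochondrial transfer RNAs, read 14.24, 14.10, 13.98, 14.24 and 14.06 on the retina arrays, against 12.76, 12.74, 12.84, 12.44 and 12.63 on the cortex arrays. It was higher on all retina arrays (1.44, SE 0.0794, adjusted p = 7.37e-11). Cdk5r2, the second activator, averaged 10.07 ± 0.50 in retina and 9.85 ± 0.53 in cortex and was dim in both tissues. Cdk5rap2, a centrosome protein, averaged 11.52 ± 0.14 in retina and 11.27 ± 0.23 in cortex, and Cdk5rap3 differed by -0.25. Neither was called.

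The CDK-like kinases held 2 lower genes of 3 (66.7%, beside 14.7% of named genes). Cdkl2 read 11.00, 10.70, 10.91, 10.89 and 10.62 on the retina arrays, against 12.75, 12.63, 12.71, 12.41 and 12.46 on the cortex arrays. Cdkl1 read 10.02, 10.17, 10.21, 10.36 and 10.33 on the retina arrays, against 11.42, 11.45, 11.47, 11.77 and 11.63 on the cortex arrays. The retina values lay below the cortex values in both, with differences of -1.77 (SE 0.11, adjusted p = 5.84e-10) for Cdkl2 and -1.33 (SE 0.15, adjusted p = 6.71e-07) for Cdkl1, and Cdkl1 was dim in retina. Cdkl3 averaged 11.79 ± 0.07 in retina and 12.46 ± 0.08 in cortex and was not called.

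Among inhibitors and interactors of CDKs 2 of 10 genes were higher and 2 lower (20% each way), near the 14.2% higher and 14.7% lower of all named genes. Cdkn1a, which encodes the inhibitor p21, read 10.77, 11.34, 11.07, 10.59 and 10.85 on the retina arrays, against 13.26, 13.28, 13.13, 13.18 and 13.03 on the cortex arrays. Retina lay below cortex on every array (-2.25, SE 0.12, adjusted p = 8.15e-11). Cdkn2a, the gene of p16 and Arf, read 9.47, 8.77, 9.07, 7.47 and 9.69 on the retina arrays, against 10.22, 11.15, 10.74, 10.75 and 10.65 on the cortex arrays. The retina arrays spread widely, from 7.47 to 9.69, yet did not reach the lowest cortex value (-1.80, SE 0.37, adjusted p = 0.00051). Cdkn2a was dim in retina, and its cortex mean of 10.70 lay just above the yardstick of 10.65. Cdk2ap2, named as a Cdk2-associated protein, read 16.20, 16.01, 15.86, 16.01 and 15.86 on the retina arrays, against 13.12, 13.03, 13.14, 12.98 and 12.96 on the cortex arrays. It was higher on all 5 retina arrays, by 2.94 (SE 0.0659, adjusted p = 5.86e-16). Cdkn2aip, which encodes a protein that binds Arf, read 11.79, 11.93, 11.71, 11.61 and 11.24 on the retina arrays, against 9.27, 9.39, 9.26, 8.98 and 10.28 on the cortex arrays. Cortex array 5 stood above the other cortex arrays but below every retina array, and the difference was 2.22 (SE 0.24, adjusted p = 4.28e-07). Cdkn2aip was dim in cortex. The inhibitor p27, from Cdkn1b, averaged 11.80 ± 0.23 in retina and 11.85 ± 0.13 in cortex, Cdkn2d averaged 14.70 ± 0.12 in retina and 15.02 ± 0.10 in cortex and Cdkn2b averaged 10.81 ± 0.26 in retina and 10.57 ± 0.30 in cortex, none of them called. Cdkn2aipnl, a relative of Cdkn2aip, averaged 13.92 ± 0.11 in retina and 14.68 ± 0.03 in cortex and was not called. The uncalled members of the list differed by -0.89 (Cdk2ap1) to 0.67 (Cdkal1).

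Among E2F factors and pocket proteins, the one called gene of 7 was E2f2 (14.3%, beside 14.7% lower among all named genes). E2f2, an activator of replication genes, read 10.53, 8.89, 9.22, 9.79 and 9.24 on the retina arrays, against 11.21, 11.10, 10.99, 11.85 and 11.33 on the cortex arrays. It was dim on all retina arrays and lower than on any cortex array (-1.76, SE 0.29, adjusted p = 5.28e-05). E2f4, E2f5 and E2f6, the repressing E2F factors measured here, had differences above 0. E2f1, E2f3, E2f7 and E2f8 were not among the 7 genes. E2f6 averaged 15.43 ± 0.05 in retina and 14.68 ± 0.06 in cortex, E2f5 averaged 13.19 ± 0.07 in retina and 12.76 ± 0.08 in cortex and E2f4 averaged 14.13 ± 0.10 in retina and 13.82 ± 0.11 in cortex. The differences were 0.75 for E2f6, 0.43 for E2f5 and 0.31 for E2f4, and none was called. Rbl2, the pocket protein p130 of resting cells, averaged 12.40 ± 0.09 in retina and 11.44 ± 0.24 in cortex. The difference was 0.96, just short of 2-fold. Rb1 and Rbl1 were dim in both tissues.

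**Figure D2:**
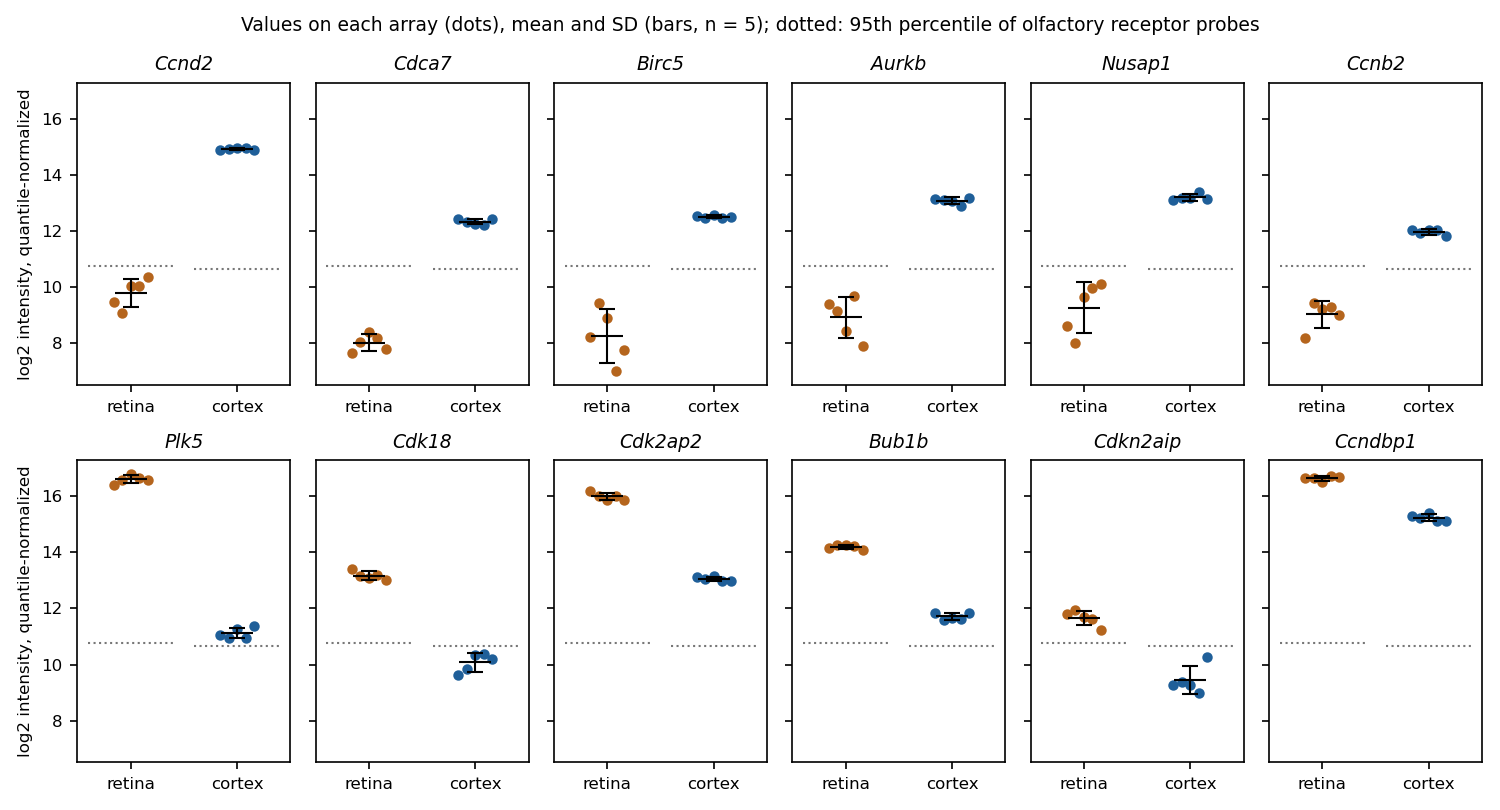
Log2 intensity after quantile normalization (y axis) on each array (dots) for 6 genes that were lower in retina (top) and 6 that were higher (bottom), with mean and SD of 5 arrays as bars and the dim yardstick dotted. In the top panels every retina array lies below the yardstick, and in none of the 12 panels do the tissues overlap.

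Entry into mitosis is set by the kinase Wee1, which holds Cdk1 inactive, and by the Cdc25 phosphatases, which release it. Of these 4 genes 2 were lower in retina (50%, beside 14.7% of named genes). Cdc25a read 12.14, 12.02, 11.79, 12.17 and 12.04 on the retina arrays, against 14.08, 14.05, 13.97, 13.95 and 13.96 on the cortex arrays. The tissues were far apart beside the spread of their arrays (-1.97, SE 0.0756, adjusted p = 6.24e-13). Cdc25b read 10.53, 10.86, 11.08, 12.60 and 11.42 on the retina arrays, against 12.30, 12.53, 12.47, 12.43 and 12.27 on the cortex arrays. Retina array 4, at 12.60, lay above all cortex arrays, so the tissues overlapped. The Cdc25b difference of -1.10 (SE 0.27, adjusted p = 0.00256) was called, but it was -0.91 without retina array 1 and -0.99 without retina array 2, and not called in either. With arrays centred on their medians it fell just short of 2-fold. Cdc25c, best known from germ cells in the mouse, averaged 11.54 ± 0.22 in retina and 11.12 ± 0.13 in cortex. Wee1 averaged 9.36 ± 0.55 in retina and 8.85 ± 0.42 in cortex, dim in both tissues, and neither was called.

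The kinases of mitosis showed the widest range, with 5 of 9 lower (55.6%, beside 14.7% of named genes) and 1 higher (11.1%, beside 14.2%). Aurkb, the Aurora kinase of the chromosomal passenger complex, read 9.42, 9.16, 8.44, 9.70 and 7.90 on the retina arrays, against 13.14, 13.12, 13.09, 12.89 and 13.19 on the cortex arrays. Every retina array was dim and every cortex array bright (-4.16, SE 0.27, adjusted p = 6.67e-10). Aurka, the Aurora kinase of centrosomes and spindle poles, averaged 11.14 ± 0.39 in retina and 12.00 ± 0.20 in cortex. The difference was -0.86 and was not called. Aurkc and Ttk were dim in both tissues.

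The 5 Polo-like kinases divided. Plk5 is a family member described in nervous tissue, with no established part in cell division. It read 16.39, 16.57, 16.79, 16.63 and 16.59 on the retina arrays, against 11.06, 10.95, 11.25, 10.96 and 11.39 on the cortex arrays. Retina stood above cortex on every array by 5.47 (SE 0.0888, adjusted p = 1.28e-17) or 44.3-fold, with both tissues above the yardstick. Plk2, which in neurons is induced by activity, read 14.32, 14.28, 14.47, 14.41 and 14.40 on the retina arrays, against 17.31, 17.27, 17.31, 17.49 and 17.31 on the cortex arrays. Here retina was lower throughout (-2.96, SE 0.0523, adjusted p = 3.29e-17). Plk4, the kinase of centriole duplication, read 10.54, 10.18, 10.44, 10.38 and 9.41 on the retina arrays, against 11.64, 11.86, 11.78, 12.12 and 11.98 on the cortex arrays. It too was lower on every retina array (-1.69, SE 0.20, adjusted p = 1.37e-06), and it was dim in retina. Plk1, the kinase of mitotic entry and spindle assembly, averaged 11.22 ± 0.26 in retina and 12.43 ± 0.07 in cortex and was lower by -1.21 (SE 0.12, adjusted p = 1.89e-07). Plk3 averaged 9.41 ± 0.63 in retina and 10.54 ± 0.48 in cortex, was dim in both tissues and overlapped between them. Its difference of -1.13 (SE 0.32, adjusted p = 0.00753) was -0.87 and not called without retina array 4.

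Of the 7 Nek kinases 3 were lower (42.9%, beside 14.7% of named genes) and none was higher (beside 14.2%). Nek2, which separates centrosomes, read 8.48, 10.04, 8.06, 8.77 and 8.51 on the retina arrays, against 11.00, 10.74, 10.88, 11.09 and 10.52 on the cortex arrays. Nek6, a kinase of spindle formation, read 11.88, 11.88, 11.84, 11.62 and 11.81 on the retina arrays, against 13.14, 13.07, 13.17, 13.16 and 13.10 on the cortex arrays. The tissues did not overlap in either, and the differences were -2.07 (SE 0.33, adjusted p = 4.41e-05) for Nek2 and -1.32 (SE 0.0757, adjusted p = 1.26e-10) for Nek6. Nek2 was dim in retina, and its cortex mean of 10.84 lay just above the yardstick of 10.65. Nek11 read 8.05, 9.63, 10.32, 9.03 and 10.11 on the retina arrays, against 11.07, 10.36, 10.53, 9.91 and 10.61 on the cortex arrays. Its values overlapped and were dim in both tissues, and the call (-1.07, SE 0.38, adjusted p = 0.0289) was lost when any 1 of 5 arrays was left out, with values of -0.73 to -1.06. Nek9, which acts upstream of Nek6, averaged 13.68 ± 0.17 in retina and 12.88 ± 0.11 in cortex. Nek4 averaged 13.62 ± 0.10 in retina and 12.62 ± 0.07 in cortex, with a difference that rounds to 1.00 and fell just short of 2-fold. Neither was called, nor was Nek3 (-0.47).

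The spindle checkpoint delays anaphase until every chromosome is attached, and its 4 genes did not move together. Bub1, the kinase that gathers the checkpoint at kinetochores, read 8.39, 8.73, 9.21, 8.67 and 8.81 on the retina arrays, against 10.85, 10.80, 11.01, 11.65 and 10.96 on the cortex arrays. It was dim in retina and lower than on any cortex array (-2.29, SE 0.25, adjusted p = 6.11e-07). Bub1b, which encodes BubR1, read 14.15, 14.26, 14.26, 14.21 and 14.09 on the retina arrays, against 11.85, 11.60, 11.67, 11.62 and 11.84 on the cortex arrays. The direction was the reverse: all retina arrays were above all cortex arrays, by 2.48 (SE 0.0721, adjusted p = 1.68e-14). Bub3, the partner of both, averaged 15.23 ± 0.09 in retina and 15.18 ± 0.07 in cortex and was not called. Mad2l1, the inhibitor of Cdc20, had 2 probes. The brighter averaged 13.46 ± 0.13 in retina and 13.34 ± 0.09 in cortex and was not called, whereas the other averaged 11.58 ± 0.35 in retina and 10.17 ± 0.45 in cortex and was higher by 1.41 (SE 0.22, adjusted p = 4.29e-05), so the probes of this gene disagree.

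Kinetochore and centromere genes fell in 8 of 16 cases (50%, beside 14.7% of named genes) and rose in none (beside 14.2%). Ndc80 and Nuf2 form the rod that grips microtubules. Nuf2 read 8.64, 9.39, 8.22, 7.79 and 7.52 on the retina arrays, against 11.22, 11.05, 11.25, 10.90 and 11.27 on the cortex arrays. Ndc80 read 8.54, 9.78, 8.46, 9.16 and 8.09 on the retina arrays, against 10.98, 10.95, 11.14, 10.88 and 11.17 on the cortex arrays. Both were dim in retina without overlap, and the differences were -2.83 (SE 0.33, adjusted p = 1.1e-06) for Nuf2 and -2.21 (SE 0.30, adjusted p = 6.8e-06) for Ndc80. Cenpp and Cenph belong to the inner complex that sits on centromeric chromatin. Cenpp read 7.15, 8.40, 9.17, 8.05 and 7.79 on the retina arrays, against 10.53, 11.08, 10.45, 10.98 and 10.87 on the cortex arrays. Cenph read 10.24, 10.82, 10.06, 10.30 and 10.51 on the retina arrays, against 12.52, 12.82, 12.56, 12.36 and 12.56 on the cortex arrays. The tissues were again apart, with differences of -2.67 (SE 0.35, adjusted p = 5.02e-06) for Cenpp and -2.18 (SE 0.15, adjusted p = 1.04e-09) for Cenph. Cenpp and Cenph were dim in retina, and the cortex mean of Cenpp, 10.78, lay just above the yardstick of 10.65. Cenpa, the centromeric histone H3 variant, averaged 11.16 ± 0.14 in retina and 12.94 ± 0.06 in cortex and was above the yardstick in both tissues, with a difference of -1.78 (SE 0.0916, adjusted p = 3.03e-11). Cenpu (-1.86), Cenpi (-1.10) and Cenpt (-1.06) were also lower. Cenpu and Cenpi were dim in both tissues. Cenpi values overlapped between tissues, and the Cenpi call was lost without any 1 of 4 arrays. With arrays centred on their medians the Cenpt difference was -0.91 and not called. The brightest uncalled members were Cenpx, at 15.44 ± 0.09 in retina and 15.32 ± 0.06 in cortex, and Cenpc1, at 13.81 ± 0.08 in retina and 14.23 ± 0.07 in cortex. Cenpb, which binds a motif of centromeric repeats, averaged 11.64 ± 0.13 in retina and 12.57 ± 0.16 in cortex. The difference was -0.93, under 2-fold.

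The chromosomal passenger and Cdca genes had 7 of 9 members lower (77.8%, beside 14.7% of named genes), with a median of -2.26. The passenger complex corrects faulty attachments and steers the final split of the cell. It is built from Aurkb, Incenp, Birc5 (survivin) and Cdca8 (borealin). Birc5 read 8.21, 9.43, 8.92, 7.0 and 7.76 on the retina arrays, against 12.55, 12.47, 12.57, 12.47 and 12.52 on the cortex arrays. Cdca8 read 7.43, 7.67, 8.69, 7.28 and 9.07 on the retina arrays, against 12.03, 12.13, 12.07, 11.83 and 11.93 on the cortex arrays. With Aurkb, 3 of its 4 subunits were dim on all retina arrays and at or above 11.83 on all cortex arrays, with differences of -4.25 (SE 0.35, adjusted p = 1.46e-08) for Birc5 and -3.97 (SE 0.33, adjusted p = 1.49e-08) for Cdca8, beside -4.16 for Aurkb. The fourth subunit, the scaffold Incenp, averaged 13.24 ± 0.11 in retina and 12.90 ± 0.07 in cortex. Its difference of 0.34 was not called and had the opposite sign.

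Cdca7, a target gene of Myc that works in chromatin remodelling, read 7.65, 8.04, 8.41, 8.19 and 7.79 on the retina arrays, against 12.43, 12.33, 12.25, 12.23 and 12.45 on the cortex arrays. It was dim on every retina array (-4.32, SE 0.21, adjusted p = 1.5e-11). Cdca3, which promotes mitotic entry, read 8.63, 8.88, 7.98, 8.61 and 9.93 on the retina arrays, against 11.03, 11.39, 11.28, 11.22 and 11.06 on the cortex arrays. Cdca3 was dim in retina, and no retina array reached the cortex values (-2.39, SE 0.31, adjusted p = 3.77e-06). Cdca7l (-2.26), Cdca5 (-1.38) and Cdca2 (-1.14) were lower as well. Cdca7l and Cdca2 were dim in retina, and the cortex mean of Cdca2, 10.65, lay at the yardstick. Values of the tissues overlapped in Cdca2 and in Cdca5. Cdca5, the cohesin protector sororin, was dim in both tissues, and the Cdca2 difference was -0.73 and not called without retina array 4. Cdca4 averaged 11.33 ± 0.23 in retina and 12.28 ± 0.09 in cortex and was not called.

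The anaphase promoting complex is present in dividing cells and in neurons. Of its 12 genes here 10 were not called, 2 were lower (16.7%) and none was higher. Among all named genes 14.7% were lower and 14.2% higher. Anapc5, a scaffold subunit, read 13.91, 13.90, 13.89, 13.85 and 13.92 on the retina arrays, against 16.05, 16.04, 16.11, 15.99 and 16.17 on the cortex arrays. The retina arrays were all lower and the spread within each tissue was small beside the difference of -2.17 (SE 0.0461, adjusted p = 2.88e-16). Cdc20, the activator of the complex in mitosis, read 12.24, 12.01, 11.97, 12.42 and 12.57 on the retina arrays, against 13.68, 13.84, 13.73, 13.92 and 13.64 on the cortex arrays. It was lower on all retina arrays (-1.52, SE 0.11, adjusted p = 1.82e-09). The other subunits measured (Anapc1, Anapc2, Anapc4, Anapc7, Anapc10, Anapc11, Anapc13, Anapc16 and Cdc23) differed by -0.59 to 0.96. Anapc4 averaged 16.94 ± 0.06 in retina and 17.23 ± 0.08 in cortex and Anapc11 averaged 16.34 ± 0.09 in retina and 16.92 ± 0.14 in cortex. Ube2c, the enzyme that supplies the complex with ubiquitin, read 20.71, 20.32, 20.59, 20.71 and 20.64 on the retina arrays, against 20.37, 20.23, 20.97, 20.46 and 19.98 on the cortex arrays. These were among the brightest values on the array in both tissues, whose 99th percentile was 18.13, and they overlapped (0.19, SE 0.14, adjusted p = 0.31).

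Tpx2, Prc1 and Nusap1 bind spindle microtubules, and all 3 were lower (100%, beside 14.7% of named genes). Nusap1 read 8.63, 8.01, 9.64, 9.97 and 10.13 on the retina arrays, against 13.11, 13.18, 13.19, 13.40 and 13.13 on the cortex arrays. Prc1 read 10.53, 9.67, 10.14, 9.86 and 8.29 on the retina arrays, against 13.19, 13.12, 13.27, 13.08 and 13.09 on the cortex arrays. Tpx2, the activator of Aurka, read 11.08, 10.73, 10.27, 10.94 and 11.00 on the retina arrays, against 13.61, 13.77, 13.62, 13.96 and 13.96 on the cortex arrays. None overlapped between tissues, and the differences were -3.92 (SE 0.32, adjusted p = 1.16e-08) for Nusap1, -3.45 (SE 0.29, adjusted p = 2.26e-08) for Prc1 and -2.98 (SE 0.14, adjusted p = 6.8e-12) for Tpx2. The means of Nusap1 and Prc1 were below the yardstick in retina and that of Tpx2 was just above it.

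The symbol rule also took in Ccndbp1 and Cenps. Ccndbp1, a protein that binds D-type cyclins, read 16.64, 16.63, 16.51, 16.71 and 16.67 on the retina arrays, against 15.29, 15.23, 15.41, 15.11 and 15.13 on the cortex arrays. It was higher on all retina arrays (1.40, SE 0.059, adjusted p = 2.23e-12). Cenps, a histone-fold protein of centromeres and of DNA repair, read 11.06, 10.80, 10.92, 11.49 and 11.34 on the retina arrays, against 12.23, 12.22, 12.28, 12.35 and 12.25 on the cortex arrays. It was lower on all of them (-1.14, SE 0.13, adjusted p = 8.49e-07).

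**Figure D3:**
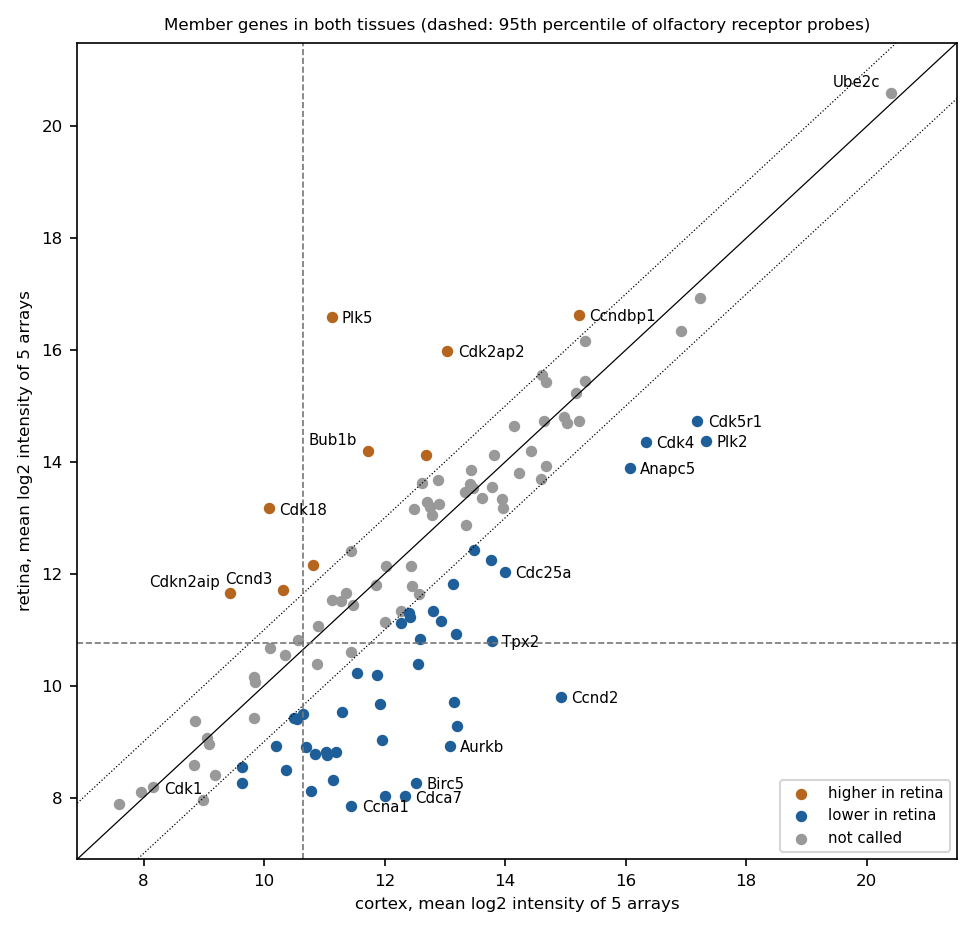
Mean log2 intensity of 5 retina arrays (y axis) against 5 cortex arrays (x axis) for the 117 genes; the solid line marks equal values, dotted lines 2-fold and dashed lines the dim yardstick of each tissue. Of the 44 lower genes 22 lie below the horizontal dashed line and right of the vertical one, and Ube2c lies near equality at 20.59 in retina and 20.40 in cortex.

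Many genes of late cell cycle carry, near their start, a CHR element (cell cycle genes homology region) and CCAAT boxes, which bind the DREAM and MuvB complexes and NF-Y, and genes of replication often carry E2F sites. The RefSeq promoters of build GRCm38.p6 (250 bases before to 50 after a start) held 99 of the 117 genes, with 113 promoters. They were searched on both strands for CHR as TTTGAA or TTCGAA, for CCAAT, and for E2F sites as TTTGGCGC, TTTCCCGC, TTTCGCGC or TTTGCCGC. In 2 of the 113 promoters matches overlapped. The promoters of 5 lower genes are shown because each holds a CHR with a CCAAT box, and among lower genes of that kind these had the largest differences. Capitals mark the matches. Cdca8 lies at chr4:124936868-124937167 (minus strand), Prc1 at chr7:80294201-80294500 (plus strand), Ccnb2 at chr9:70421505-70421804 (minus strand), Cdca3 at chr6:124829926-124830225 (plus strand) and Bub1 at chr2:127831810-127832109 (minus strand).
Cdca8: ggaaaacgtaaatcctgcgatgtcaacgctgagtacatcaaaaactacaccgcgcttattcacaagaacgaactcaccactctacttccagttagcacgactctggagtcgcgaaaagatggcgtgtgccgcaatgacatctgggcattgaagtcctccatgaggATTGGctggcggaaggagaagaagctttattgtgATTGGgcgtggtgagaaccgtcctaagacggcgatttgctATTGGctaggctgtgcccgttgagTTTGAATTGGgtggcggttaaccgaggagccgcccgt
Prc1: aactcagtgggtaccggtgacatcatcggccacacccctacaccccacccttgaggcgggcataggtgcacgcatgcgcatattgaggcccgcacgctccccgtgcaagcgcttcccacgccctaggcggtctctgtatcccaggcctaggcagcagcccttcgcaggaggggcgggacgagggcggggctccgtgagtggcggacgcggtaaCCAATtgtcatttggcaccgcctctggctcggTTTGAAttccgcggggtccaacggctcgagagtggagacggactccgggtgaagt
Ccnb2: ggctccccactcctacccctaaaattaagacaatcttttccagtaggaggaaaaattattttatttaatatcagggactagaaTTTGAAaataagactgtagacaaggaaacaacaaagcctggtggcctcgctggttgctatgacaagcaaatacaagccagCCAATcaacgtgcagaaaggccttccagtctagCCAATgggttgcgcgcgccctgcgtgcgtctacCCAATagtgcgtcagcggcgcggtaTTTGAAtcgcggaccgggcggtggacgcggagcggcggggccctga
Cdca3: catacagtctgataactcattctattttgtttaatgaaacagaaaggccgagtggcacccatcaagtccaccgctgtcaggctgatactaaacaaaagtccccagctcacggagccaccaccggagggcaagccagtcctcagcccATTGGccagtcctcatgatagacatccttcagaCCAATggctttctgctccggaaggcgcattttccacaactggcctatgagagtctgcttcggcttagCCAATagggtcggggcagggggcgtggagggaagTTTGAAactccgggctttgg
Bub1: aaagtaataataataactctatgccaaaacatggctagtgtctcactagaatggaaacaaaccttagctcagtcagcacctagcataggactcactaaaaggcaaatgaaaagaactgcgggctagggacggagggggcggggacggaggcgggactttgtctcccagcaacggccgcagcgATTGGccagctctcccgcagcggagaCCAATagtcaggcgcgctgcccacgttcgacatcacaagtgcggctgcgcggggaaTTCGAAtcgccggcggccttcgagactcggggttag

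From the first base of the nearest CCAAT match upstream to the first base of the CHR match closest to the 3′ end, the distance was 24 bases in Cdca8, 25 in Ccnb2, 32 in Prc1, 34 in Cdca3 and 56 in Bub1. A CHR was found in 29.5% of the 44 promoters of lower genes, 22.2% of the 9 of higher genes and 28.3% of the 60 of uncalled genes, against 16.2% of the 13928 promoters of genes named on the array and 19.2% of all 32851 promoters. CCAAT was found in 56.8% of those of lower genes, 55.6% of those of higher genes and 51.7% of those of uncalled genes, against 37.7% for genes on the array and 37.4% for all. Both motifs stood together in 25% of promoters of lower genes, 11.1% of those of higher genes and 18.3% of those of uncalled genes, against 6.42% for genes on the array and 7.52% for all. An E2F site was found in 11.4% of promoters of lower genes, in 0 of the 9 of higher genes and in 6.67% of those of uncalled genes, against 3.2% for genes on the array and 2.26% for all. The lower genes with an E2F site were Cdc25a, Cdca7, Cdkn2a, Cenps and E2f2. Bub1b, which was higher in retina, and Ube2c, which was bright in both tissues, also held a CHR and a CCAAT box. These shares describe letters in a window and were not tested.

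**Figure D4:**
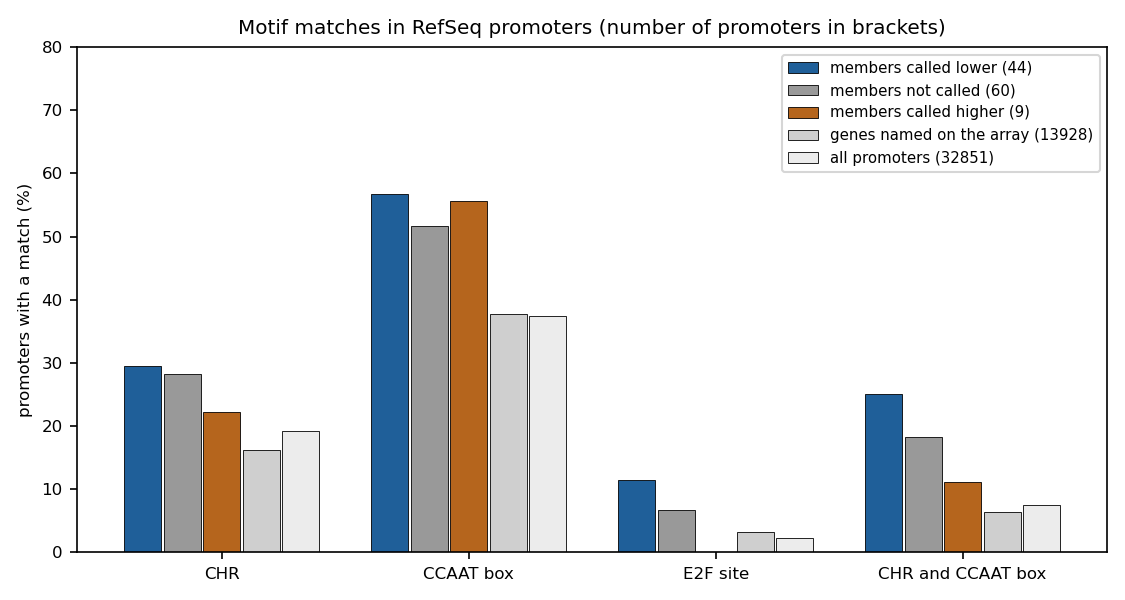
Share of RefSeq promoters (y axis, percent) with a match to each motif (x axis), for lower, uncalled and higher genes, genes named on the array and all promoters, with their numbers in the key. The shares of lower, uncalled and higher genes lie above both backgrounds for CHR (29.5%, 28.3% and 22.2%) and for CCAAT, and no promoter of a higher gene has an E2F match.

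Genes of the cycle outside the symbol rule were read from a second list of replication, condensin, kinesin and checkpoint genes, of which 65 were measured. The calls were 32 lower (49.2%) and 2 higher (3.08%), leaving 31 uncalled, beside 14.7% lower and 14.2% higher among all named genes. The median difference of the list was -0.86. In all, 19 of its genes were dim in both tissues, and 23 of the 32 lower genes were dim in retina, among them Rrm2, Top2a, Ncaph and Pole. Rrm2, the small subunit of ribonucleotide reductase, read 8.17, 8.44, 8.11, 8.27 and 7.40 on the retina arrays, against 13.88, 13.86, 13.87, 13.85 and 13.84 on the cortex arrays. It was lower on every retina array, with a difference of -5.78 (SE 0.18, adjusted p = 3.93e-14). Top2a, the topoisomerase of dividing cells, differed by -4.05 (SE 0.27, adjusted p = 1.02e-09), and the condensin subunit Ncaph by -3.71 (SE 0.22, adjusted p = 2.31e-10). Stmn1, a microtubule regulator also strong in young neurons, differed by -3.09, Cks1b, a CDK-binding protein, by -2.80, and Pole, a replicative DNA polymerase, by -2.79. The 2 higher genes were Pttg1, which encodes securin, and Ccnh, the cyclin of Cdk7. Pttg1 read 15.91, 16.29, 16.50, 16.27 and 16.48 on the retina arrays, against 14.77, 14.84, 14.83, 15.05 and 14.80 on the cortex arrays. Ccnh read 14.20, 14.18, 14.44, 14.36 and 14.29 on the retina arrays, against 13.02, 13.04, 13.06, 13.04 and 13.11 on the cortex arrays. All retina values were above the cortex values in both (1.43, SE 0.0916, adjusted p = 5.52e-10 for Pttg1 and 1.24 (SE 0.0594, adjusted p = 1.22e-11) for Ccnh). Pcna, the sliding clamp of DNA replication, was bright in both tissues, at 16.21 ± 0.11 in retina and 16.44 ± 0.11 in cortex, and its difference of -0.23 was not called.

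**Figure D5:**
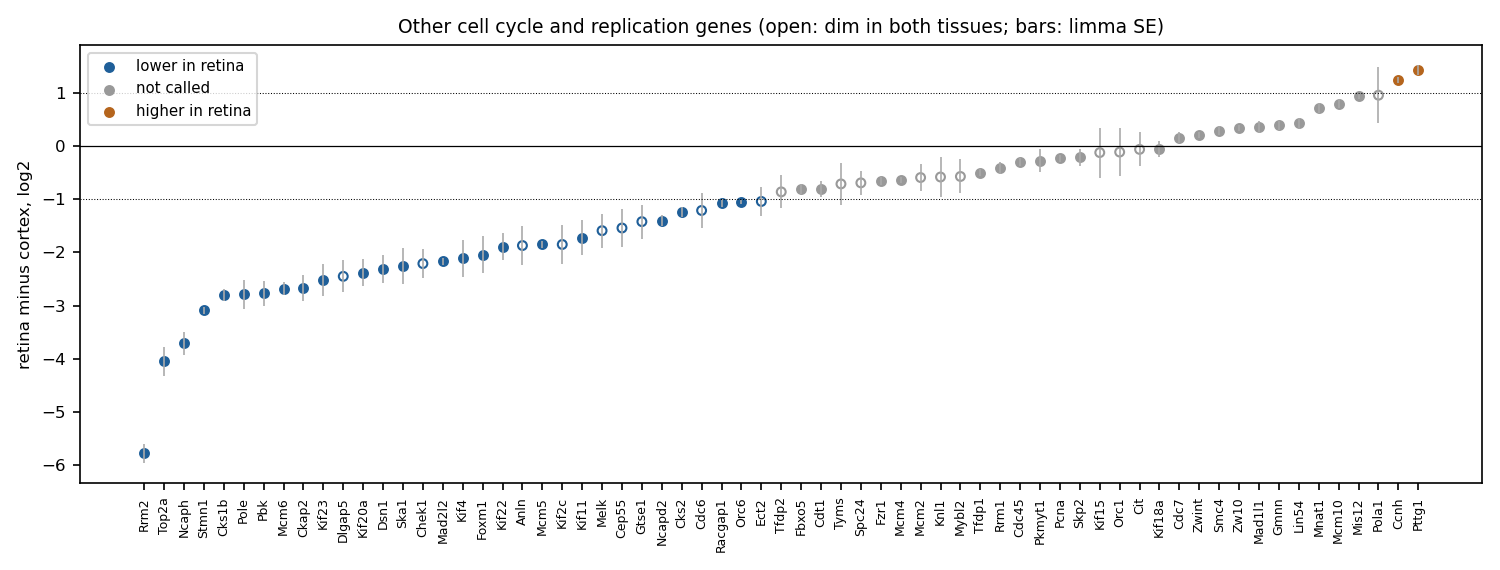
Difference, retina minus cortex in log2 intensity (y axis), of the 65 other cell cycle and replication genes (x axis, in order of difference), with limma standard errors as bars; open points are genes dim in both tissues and dotted lines mark 2-fold. The line runs from Rrm2 at -5.78 to Pttg1 at 1.43, with 32 genes called lower and 2 called higher.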

How the data were processed

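Total RNA of 2 pools, adult mouse retina (5 arrays) and postnatal day 1 mouse cortex (5 arrays), was labelled with digoxigenin and read on single-channel Applied Biosystems arrays, per the labels' protocols. The values deposited by the authors are linear intensity values for 33012 probes, with 0 values at or below 0. How the scans were turned into these values (software, background, normalization, detection) is not given in the sources used here.

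Groups came from sample titles and source names. Intensities were put on the log2 scale. The array medians spanned 0.682, above a tolerance of 0.1, so the arrays were quantile-normalized. The comparison of retina with cortex used limma 3.58.1 (R 4.3.3): lmFit without covariates and eBayes with trend = TRUE, 2-sided, p-values adjusted by Benjamini-Hochberg across all probes. SE is limma's after shrinkage. The scripts were tested on simulated data. The number of arrays limits the precision.

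Probes were named from the platform annotation (14411 with 1 symbol, 247 with several, 18354 unnamed), and all 117 genes matched a mouse RefSeq table by Entrez ID. The genes, their role lists, the list of other cell cycle and replication genes and the cell type markers were chosen with earlier results of these data known. Any of the 117 genes could be named. Values on each array are given for up to 4 called genes with the largest differences per role list and for called genes against the direction of most in their list; of uncalled genes the 3 brightest per list are named, and of the other cell cycle list the 6 largest called differences in each direction. A marker list's summed level is the log2 of the sum of its linear normalized intensities on an array. Further uncalled genes, among them Cdk1, Cdkn1b, Cdkn2b, Rb1, Rbl1, Rbl2 and Pcna, were named after their values were seen. Promoter sequences are RefSeq's for GRCm38.p6, searched with Python 3.11.15. Alternatives were other normalizations, an added offset, filters on dim probes, limma without the trend, the array number as a block, a test against 1.5-fold, the mean of a gene's probes, and each array left out in turn.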

Additional observations from a re-analysis of the deposited data

Results flagged for a closer look

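Among 234 groups of 5 arrays (each of the 117 genes in each tissue), 9 held an array that stood apart from the other 4 by Dixon's test of the gap against the range, 4 in retina and 5 in cortex. Chance gives about 1 in 20 groups. In Cdca2, retina array 4 read 7.88 while the others lay between 9.65 and 10.17, and without it the difference was -0.73 and not called. Cdca2 on cortex array 2 read 9.96, with the others at 10.71 to 11.00. Bub1 on cortex array 4 read 11.65, above the others at 10.80 to 11.01, and the gene was still called without that array, at -2.13. Plk2 on cortex array 4 read 17.49 (others 17.27 to 17.31), with a difference of -2.92 without it. Nek6 on retina array 4 read 11.62 (others 11.81 to 11.88), with a difference of -1.27 without it. The other 4 were genes that were not called with or without the array: Cenpb on retina array 2 read 11.42 (others 11.66 to 11.73), Wee1 on retina array 5 read 8.39 (others 9.39 to 9.71), Aurkc on cortex array 5 read 9.37 (others 6.96 to 7.33) and Cenpe on cortex array 2 read 9.19 (others 9.90 to 10.06).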

How the results depend on the processing

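Of the 53 called genes 48 kept their call without each array in turn, 44 kept it under every setting in which they were fitted, and none was called in the opposite direction in the 17 settings. The 9 that lost it under some setting were Ccnd3, Cdk19, Cdc25b, Cenpt, Cdca2, Cdca5, Cenpi, Plk3 and Nek11. Some uncalled genes gained a call: without normalization 12 were called lower. Nek4 and Rbl2 were called higher with arrays centred on their medians, in a test against 1.5-fold and without certain single arrays. Without normalization the median difference was -0.86 over the 117 genes, the split 7 higher and 56 lower, and that of all probes 2474 higher and 7621 lower, with 1 of the other cell cycle genes higher. With arrays centred on their medians these were -0.32, 13 higher and 42 lower, and 4561 higher and 3972 lower. A limma test against 1.5-fold, used without the 2-fold minimum, called 15 of the 117 genes higher and 43 lower. In it 6 called genes lost their call and 11 uncalled genes gained one. Of the other cell cycle genes it called 4 higher and 30 lower. Leaving out 1 array at a time gave 9 to 11 higher and 41 to 45 lower genes, a median of -0.52 to -0.40, 2 higher and 31 to 32 lower among the other cell cycle genes, and 3932 to 4049 higher and 4341 to 4427 lower probes. The titles give both tissues array numbers 1 to 5. The deviations of same-numbered arrays correlated by only -0.0202 to 0.0288, although 3 of 5 retina arrays correlated best with their own number. With the array number as a block 9 genes were higher and 44 lower, with a median of -0.47, 2 of the other cell cycle genes were higher and 32 lower, and 4000 probes were higher and 4398 lower. Without the genes dim in both tissues 9 were higher and 38 lower. Dim signal limits precision: in retina the median SD was 0.636 for the 44 genes below the yardstick, against 0.116 for the 73 above it.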

Other observations

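Repeat arrays differed by less for these genes than for the array as a whole. The median SD over 5 arrays was 0.201 in retina and 0.128 in cortex for the 117 genes, against 0.332 in retina and 0.281 in cortex for all 33012 probes. In cortex it was 0.409 for the 24 dim genes and 0.112 for the 93 others. The 117 genes were also brighter than most probes. Their array medians ran from 11.40 to 12.47, and the median of all probes was 9.95. The part of brightness in the smaller spread was not tested. Cenpe and Ccnb3 each had a second probe, and neither was called. For Cenpe the second probe averaged 8.06 ± 0.72 in retina and 9.13 ± 1.04 in cortex, which differ by -1.07. For Ccnb3 it averaged 8.14 ± 0.54 in retina and 7.68 ± 0.36 in cortex.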
